A study of Mus musculus with 8 samples.

Results

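The 10 genes described here code for transcription factors of the cushion mesenchyme, taken by symbol as 5 pairs of related genes: Snai1 and Snai2, Twist1 and Twist2, Zeb1 and Zeb2, Msx1 and Msx2, and Prrx1 and Prrx2. All 10 were found among the 49315 genes of the deposited count table, and all 10 passed the filter on low counts. The study measured RNA of hearts dissected from C57BL/6 mouse embryos at embryonic day 9.5, without any treatment or engineered allele named in the labels. There were 4 libraries from female and 4 from male embryos, with sex read by genotyping Sry in other tissue of the embryo. The labels do not state if a library held 1 heart or a pool, or if embryos shared a litter. P-values therefore measure the spread between these libraries, which may be technical.

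At this stage endocardial cells of the atrioventricular canal and outflow tract begin to leave the endocardial sheet and enter the cardiac jelly, where they form the mesenchyme of the endocardial cushions, the precursors of valves and septa. Bmp2 from the myocardium, Tgf-beta ligands and Notch signalling drive this epithelial-to-mesenchymal transition. Snail proteins (Snai1 and Snai2, also called Slug) and Zeb proteins are zinc finger repressors that bind E-boxes in genes of cell adhesion such as cadherins. Twist proteins are bHLH factors that pair with E-proteins, Msx1 and Msx2 are homeodomain targets of Bmp signalling, and Prrx1 and Prrx2 are paired-related homeodomain factors of mesenchyme. Several of them are also known from neural crest and from pharyngeal and limb mesenchyme.

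The RefSeq promoter table (GRCm38.p6) held windows for 8 of the 10 genes, not for Snai2 or Zeb1. The 250 bases before the start were searched on both strands for the E-box CANNTG and for CAGGTG, the form of the E-box bound by Snail and Zeb proteins, which is itself a CANNTG. Snai1, Twist1, Twist2 and Msx1 are shown, because Twist1 and Twist2 had the only correlation among the factors that passed its test, Snai1 varied with Twist1, and the windows of Snai1 and Msx1 held CAGGTG. Capitals mark every CANNTG, written as it reads on the strand of the gene, where CAGGTG on the other strand reads CACCTG.
Snai1, chr2:167537945-167538194 (+ strand): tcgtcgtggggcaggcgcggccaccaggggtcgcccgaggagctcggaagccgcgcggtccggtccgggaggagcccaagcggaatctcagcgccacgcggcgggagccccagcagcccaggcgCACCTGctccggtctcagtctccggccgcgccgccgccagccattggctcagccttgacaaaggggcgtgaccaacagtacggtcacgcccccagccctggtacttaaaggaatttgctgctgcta
Msx1, chr5:37824586-37824835 (- strand): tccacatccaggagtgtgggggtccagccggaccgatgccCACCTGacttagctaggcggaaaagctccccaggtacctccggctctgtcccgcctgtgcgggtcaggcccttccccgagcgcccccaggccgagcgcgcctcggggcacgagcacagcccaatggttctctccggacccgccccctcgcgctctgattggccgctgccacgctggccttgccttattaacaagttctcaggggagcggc
Twist1, chr12:33957421-33957670 (+ strand): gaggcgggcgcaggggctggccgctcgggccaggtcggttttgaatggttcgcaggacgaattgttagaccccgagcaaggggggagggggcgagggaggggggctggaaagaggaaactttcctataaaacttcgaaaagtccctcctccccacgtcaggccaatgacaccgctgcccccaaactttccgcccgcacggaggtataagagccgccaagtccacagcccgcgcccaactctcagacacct
Twist2, chr1:91801211-91801460 (+ strand): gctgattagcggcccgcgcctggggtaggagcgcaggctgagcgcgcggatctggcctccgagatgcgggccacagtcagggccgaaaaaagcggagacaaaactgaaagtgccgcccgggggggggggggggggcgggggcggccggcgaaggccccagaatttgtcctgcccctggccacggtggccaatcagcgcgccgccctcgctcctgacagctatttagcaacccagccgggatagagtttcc
Snai1 and Msx1 had 1 CAGGTG each, and no CANNTG lay in the windows of Twist1 and Twist2. Msx2 had 1 E-box of another form, CAGTTG. Prrx1, Prrx2 and the 4 windows of Zeb2 had none. Of all 32851 promoter windows of this length, 17.2% held CAGGTG and 66.2% held CANNTG. A match is a description of these letters and not a measured site.

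The tissue carried the RNA of a heart. Cardiac alpha-actin Actc1 stood at 11670 ± 1195 CPM in the 4 female libraries and 11430 ± 310 CPM in the 4 male ones (mean ± SD), where CPM is a gene's counts scaled to a fixed total per library. All 12 endocardial and endothelial markers were tested, and their summed level was 750 to 888 CPM in females and 744 to 853 CPM in males. Total counts per library ranged from 20105913 to 51134291. Male replicate 2 stood apart, at -74.8 on the first principal component (52.4% of the variance) with the other libraries between -23.4 and 47.8. It had the lowest mitochondrial share of counts, 0.707% against 0.999% to 1.72% elsewhere. Main results for the factors that rest on it are given with and without it.

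The factors differed widely in level. Levels are given as CPM per kilobase of exon, with library sizes scaled by TMM (a correction for library composition), so that genes of different length can be compared. Prrx2 was highest at 57.5 ± 5.31 CPM per kilobase (SD, n = 8), above 93.8% of all genes tested. Twist1 followed at 20.9 ± 3.48, then Msx1 at 10.6 ± 1.61, Msx2 at 8.09 ± 1.75, Snai1 at 5.76 ± 1.02, Zeb1 at 3.63 ± 0.313 and Snai2 at 1.75 ± 0.198 CPM per kilobase. Each of these lay above the next, down to Zeb2, in 8 of 8 libraries. Zeb2 (1.17 ± 0.143), Twist2 (0.998 ± 0.259) and Prrx1 (0.982 ± 0.169 CPM per kilobase) were not separated by this measure: Zeb2 exceeded Twist2 in 6 of 8 libraries and Twist2 exceeded Prrx1 in 5 of 8. In bulk RNA, few cells with much of a transcript and many cells with little cannot be told apart.

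The lower part of this order depends on the length used, since the exons of all isoforms are summed in the count files (19942 bases for Zeb2, against 9124 in its longest coding transcript). With the longest coding transcript as the length, an alternative chosen after seeing the data, Zeb1 was at 6.33 CPM per kilobase and Snai1 at 5.76, and Snai1 lay above Zeb1 in 2 of 8 libraries. Zeb2 was then at 2.55, above Snai2 (1.75) and Twist2 (1.26) in 8 of 8 libraries each. Twist2 lay above Prrx1 (1.67) in 1 of 8 libraries. Snai2 (1.75 ± 0.199) and Prrx1 (1.67 ± 0.287, SD, n = 8) then lay within their spread of each other. Prrx2 (78.2), Twist1 (20.7), Msx1 (17.0) and Msx2 (10.8 CPM per kilobase) kept their places by the mean, with Twist1 above Msx1 in 7 of 8 libraries.

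Snai1, the Snail repressor at the head of many epithelial-to-mesenchymal transitions (chromosome 2, 167538195 to 167542814, GRCm38), stood at 8.71, 10.1, 8.82 and 11.2 CPM in Female replicates 1 to 4, and at 10.3, 6.38, 11.1 and 8.11 CPM in Male replicates 1 to 4. Male replicate 2 was the lowest library, and the ranges of the sexes overlapped. Snai2, its paralog (chromosome 16, 14705852 to 14709395), was at 4.11, 3.18, 3.29 and 3.69 CPM in females and 2.92, 3.99, 3.62 and 3.54 CPM in males. Its coefficient of variation over the 8 libraries was 11.3%, while counting error alone gives 9.47% for its 65 to 202 counts, so the spread between libraries was close to counting error. Per kilobase, Snai1 gave 76.3% ± 4.90 (SD, n = 8) of the pair, with 66.7% in Male replicate 2 as the lowest share and 81.5% in Male replicate 1 as the highest.

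Twist1, a bHLH factor needed for mesenchyme of the head and limbs and present in cushion mesenchyme (chromosome 12, 33957671 to 33959817), stood at 28.9, 34.7, 31.9 and 40.5 CPM in females and 33.0, 24.6, 41.8 and 34.6 CPM in males. Male replicate 2 was again lowest, with Female replicate 1 next. Twist2, also called Dermo1 (chromosome 1, 91801461 to 91848028), was at 4.46, 3.002, 3.50 and 2.47 CPM in females and 2.65, 4.28, 2.39 and 2.60 CPM in males, highest in Female replicate 1 and Male replicate 2. The order of libraries was thus close to the reverse of that of Twist1. Twist1 gave 95.2% ± 1.96 of the pair per kilobase (SD, n = 8). Of the exon length of Twist2, 46.5% is shared with the predicted gene Gm29100 on the other strand, which had 1 to 12 counts per library. The treatment of reads over both genes was not given in the sources used here, and its effect on the level of Twist2 was not tested.

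Zeb1, a zinc finger and homeodomain repressor (chromosome 18, 5591860 to 5775467), had the lowest coefficient of variation of the 10 factors. It was at 31.7, 35.2, 36.2 and 41.4 CPM in females and 40.7, 35.1, 35.9 and 37.5 CPM in males, a coefficient of variation of 8.63%. By the highest library over the lowest, Prrx2 was narrower (1.28, against 1.31 for Zeb1). Zeb2, its paralog, also called Sip1 (chromosome 2, 44983632 to 45117395), was at 23.7, 20.9, 21.6 and 21.8 CPM in females and 21.6, 29.8, 22.6 and 24.1 CPM in males. Male replicate 2 held the highest value of Zeb2, and the other libraries lay within 20.9 to 24.1 CPM. Zeb1 gave 75.6% ± 3.07 of the pair per kilobase and 71.2% with the longest coding transcript lengths. An antisense RNA, Zeb2os, shares 467 bases (2.34%) of the exon length of Zeb2 and had 35 to 89 counts.

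Msx1 (chromosome 5, 37820485 to 37824583) stood at 28.2, 36.4, 32.6 and 30.7 CPM in females and 33.5, 43.0, 27.5 and 31.3 CPM in males. Msx2 (chromosome 13, 53466884 to 53473074) stood at 27.5, 26.5, 29.5 and 31.7 CPM in females and 32.6, 14.4, 26.8 and 23.4 CPM in males. In Male replicate 2 Msx1 was at its highest and Msx2 at its lowest. Msx2 had the widest range of the 10 factors, with its highest library 2.26 times the lowest. Per kilobase Msx1 gave 50.7% to 59.3% of the pair in 7 libraries and 76.0% in Male replicate 2.

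Prrx1 (chromosome 1, 163245119 to 163313710) was at 11.2, 13.0, 11.8 and 11.7 CPM in females and 8.37, 13.1, 9.15 and 8.74 CPM in males. Prrx2 (chromosome 2, 30834972 to 30881251) was at 112, 124, 129 and 103 CPM in females and 108, 120, 101 and 105 CPM in males. Prrx1 gave 1.68% ± 0.216 of the pair per kilobase (SD, n = 8), and 2.08% with the longest coding transcript lengths, so Prrx2 made up nearly the whole of the Prrx pair in every library.

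**Figure D1:**
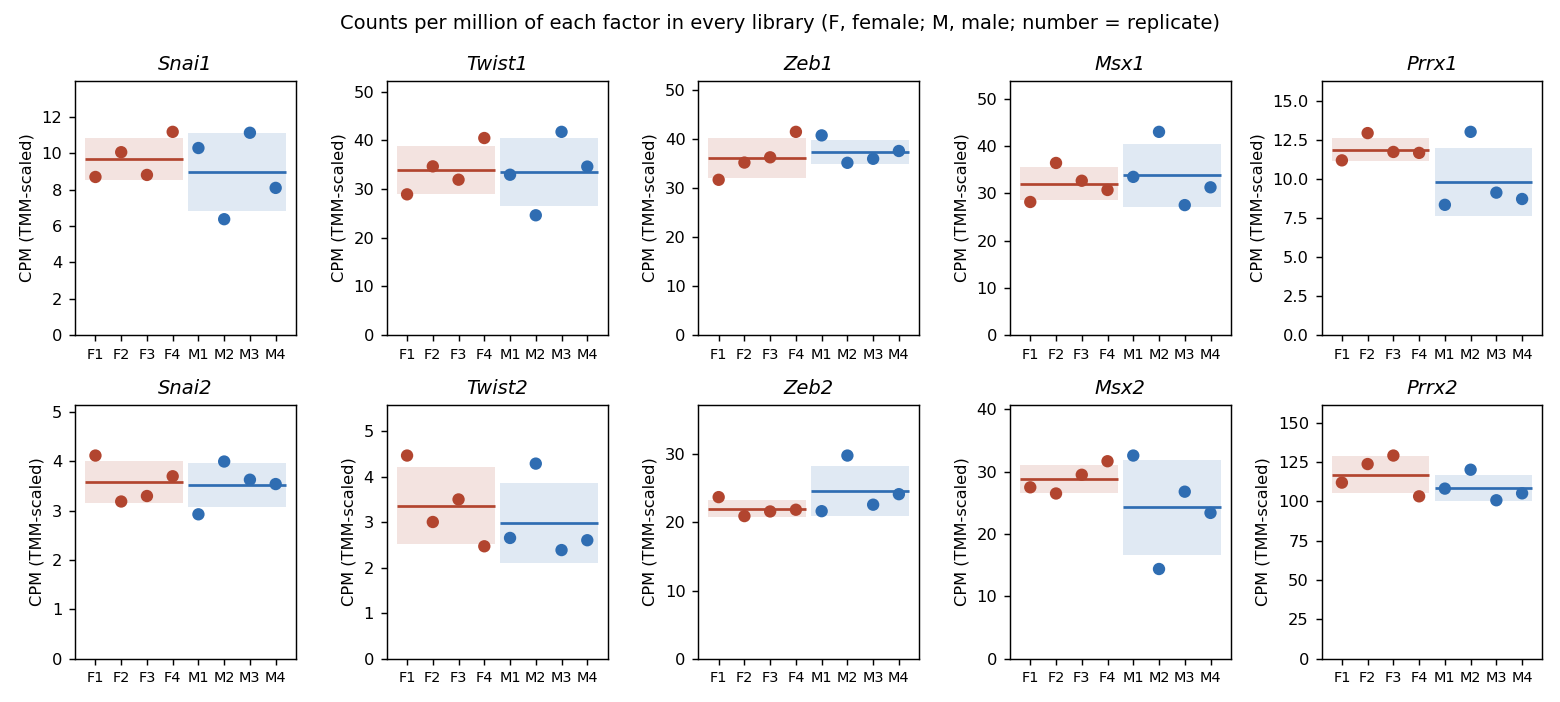
TMM-scaled CPM (linear axes from 0) of the 10 factors in every library, with paralogs above each other; points are libraries, lines the mean of each sex and bands ± 1 SD (n = 4 each). The ranges of females and males overlap for every factor, and Male replicate 2 is lowest for Snai1, Twist1 and Msx2 and highest for Zeb2, Msx1 and Prrx1.

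The question of the study was whether hearts of the sexes differ, and none of these factors passed that test. Of the 10, 0 were called at an adjusted p below 0.05 in edgeR, and 0 had an unadjusted p below 0.05. Over all 16377 genes tested, 0.0366% were called and 2.24% had an unadjusted p below 0.05. The CPM of female and male libraries overlapped for all 10 factors. They did not overlap for 2.25% of all genes, with the female libraries above in 1.11% and the male libraries above in 1.14%. DESeq2 and limma-voom also called 0 of the 10. The log2 fold changes, male minus female, ran from -0.28 to 0.16 with a median of -0.07, against a median of 0.01 over all genes tested, and 7 of the 10 had lower values in males (47.1% of all genes). Prrx1 had the largest value in this fit. Its female libraries had 11.9 ± 0.748 CPM and its male libraries 9.83 ± 2.18 CPM (mean ± SD, 4 libraries each), so that the fold change was -0.28 ± 0.15 on the log2 scale (SE; edgeR, adjusted p = 0.9995, and 0.835 to 0.9999 over its alternatives). Msx2 followed with -0.25 ± 0.21, and was ahead of Prrx1 in limma-voom (-0.32 against -0.29), in the authors' normalized values, in the fit with a replicate block, and without Female replicate 2 or Male replicate 1, 3 or 4. The others lay within 0.16 of 0. With library size as the sole scaling, 1 of the 10 had an unadjusted p below 0.05 in edgeR, Prrx1 at -0.33 (edgeR, unadjusted p = 0.0263, adjusted p = 0.9998). Those of Snai1, Snai2, Twist1, Twist2, Zeb1 and Msx1 changed sign when 1 library was left out.

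Prrx1 depended on 1 library. Male replicate 2, at 13.1 CPM, lay above every female library, and the other male libraries (8.37 to 9.15 CPM) lay below every female library (11.2 to 13.0 CPM). Without Male replicate 2 the log2 fold change was -0.45, which edgeR gave an unadjusted p = 0.00106 and, after adjustment, an adjusted p = 0.964. Female libraries then lay above all male libraries for 2.36% of all genes tested. The summed neural crest markers split the libraries in the same way. They stood at 156, 151, 135 and 141 CPM in Female replicates 1 to 4. In Male replicates 1, 3 and 4 they were at 121, 124 and 116 CPM, and in Male replicate 2 at 181 CPM. The mean log2 CPM of the list, in which its 7 markers weigh the same, also split so. Against the mean of all libraries it was 0.015 to 0.30 in females, 0.45 in Male replicate 2 and -0.50 to -0.20 in the other males. The split of the summed CPM rests on Crabp1. The markers did not all follow this split. Crabp1 did, at 22.2 to 50.8 CPM in females, 86.6 CPM in Male replicate 2 and 14.7 to 17.7 CPM in the other males. Ednra did not, and was lowest in Male replicate 2, at 33.0 CPM against 40.8 to 51.7 CPM elsewhere. The part of these markers in the difference of Prrx1 was not tested. The log2 fold change of Msx2 was -0.06 without Male replicate 2 and -0.42 without Male replicate 1, and that of Zeb2 was 0.05 without Male replicate 2.

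No difference between the sexes in the balance of a pair passed its test either. Ratios of counts per kilobase were compared on the log2 scale, where depth and scaling cancel. The log2 ratio of Snai1 to Snai2 was 1.76 ± 0.26 for the female and 1.65 ± 0.50 for the male libraries (mean ± SD, 4 libraries each; 2-sided exact permutation p = 0.714). That of Twist1 to Twist2 was 4.33 ± 0.56 and 4.47 ± 0.69 (exact permutation p = 0.743), and that of Zeb1 to Zeb2 was 1.69 ± 0.21 and 1.59 ± 0.28 (exact permutation p = 0.543). Msx1 to Msx2 was at 0.23 ± 0.22 and 0.60 ± 0.73 (exact permutation p = 0.486), and Prrx1 to Prrx2 at -5.79 ± 0.13 and -5.98 ± 0.21 (exact permutation p = 0.171). The adjusted p was 0.743 for each of the 5 ratios, and the smallest p the test can give is 0.0286. The difference for Msx1 to Msx2, 0.37, was 0.02 without Male replicate 2. Without that library it was 0.47 for Twist1 to Twist2 and -0.29 for Prrx1 to Prrx2 (exact permutation, adjusted p = 0.571 and 0.286). For Snai1 to Snai2 it was then 0.10, and for Zeb1 to Zeb2 0.03.

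Across the 8 libraries as 1 set, the ratios moved more than counting error alone gives. The Twist ratio ran from 11.3 in Male replicate 2 and 12.7 in Female replicate 1 to 34.1 in Male replicate 3, a 3.03-fold range, and its SD of 0.59 log2 units compares with 0.16 from counting alone. The Snai ratio ran from 2.0 in Male replicate 2 to 4.40 in Male replicate 1, and the Zeb ratio went from 2.33 in Male replicate 2 up to 3.74, reached in Female replicate 4. In each of these 3 pairs Male replicate 2 was lowest and Female replicate 1 was the next. The Msx ratio lay between 1.03 and 1.46 in 7 libraries and was 3.16 in Male replicate 2, so that its SD was 0.54 log2 units with that library and 0.20 without it. The Prrx ratio had the smallest SD over the 8 libraries, 0.19 log2 units, against 0.23 for the Zeb ratio. Without Male replicate 2 the Zeb ratio had the smallest, 0.17, with the Prrx ratio at 0.19.

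**Figure D2:**
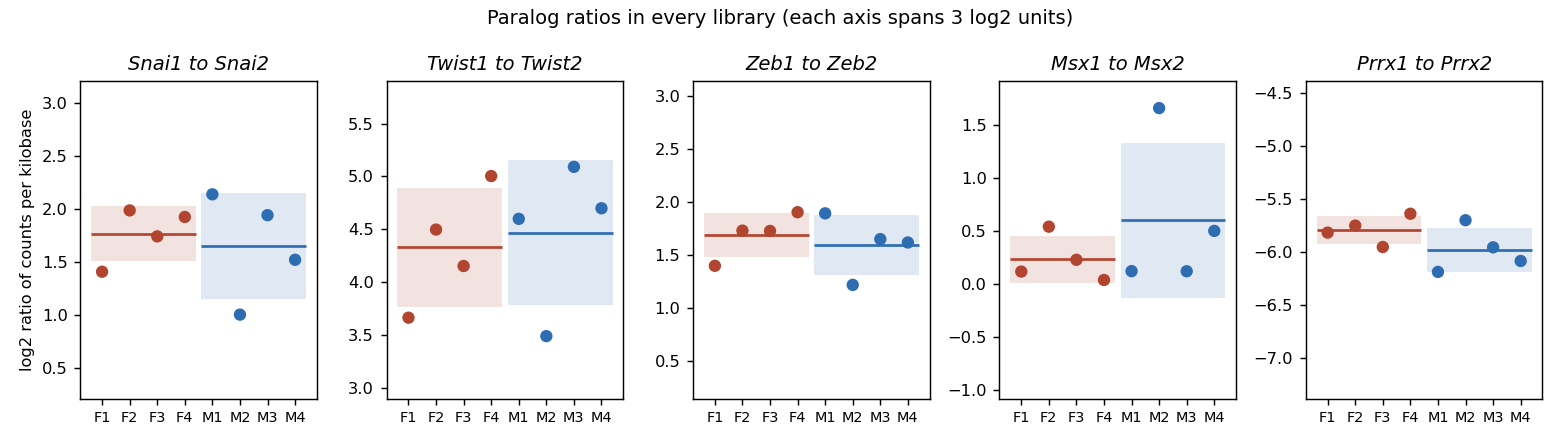
Log2 ratio of counts per kilobase within each pair in every library; points are libraries, lines the mean of each sex and bands ± 1 SD (n = 4 each), and every axis spans the same number of log2 units. The Snai, Twist and Zeb ratios are lowest in Male replicate 2, the Msx ratio is highest there, and the sexes overlap for all pairs.

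Male replicate 2 and Female replicate 1 also had the highest list means for foregut epithelium and for liver and yolk sac. The mean of the foregut epithelium markers (7 of 10 used) lay 1.88 and 1.03 log2 units above the mean of all libraries in Female replicate 1 and Male replicate 2, against -1.23 to 0.64 elsewhere. For liver and yolk sac markers (7 of 10 used) the values were 2.61 and 1.75, against -1.54 to 0.60 elsewhere. For pharyngeal and paraxial mesenchyme they were 0.55 and 0.25, against -0.28 to 0.03 elsewhere. The epicardium and proepicardium list differed, with -0.21 and 0.19 in these libraries and its highest value, 0.32, in Male replicate 3. Foregut markers differed too: in Male replicate 2 Cldn6 was at 17.3 CPM, but Hhex was at 7.78 CPM, against 7.70 to 14.7 CPM elsewhere. The summed foregut markers were 24.3 to 85.9 CPM in females and 18.7 to 53.2 CPM in males, those of liver and yolk sac 5.32 to 90.7 and 6.73 to 44.2 CPM. None of these markers was at 0 in all libraries. Markers of cardiomyocytes were also highest in Male replicate 2, 0.43 log2 units above the mean, with a summed level of 64860 CPM against 38680 to 51000 CPM elsewhere. The part of these tissues in the ratios was not tested.

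The factors did not vary as a single block. Over the 45 pairs of factors, Pearson's r of log2 CPM was positive for 20 and negative for 25, with a median of -0.25, and -0.04 without Male replicate 2. The median over all 134094876 pairs of tested genes was 0.0. An absolute r above 0.8 was reached by 5 of the 45 pairs (11.1%), against 15.5% of all pairs of tested genes. An unadjusted p below 0.05 by the exact permutation test was found for 7 of the 45. The share of all pairs of tested genes at that p was not computed, so the 7 are not read as particular to the factors. A single pair of factors passed after adjustment.

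That pair was Twist1 and Twist2, which ran against each other, with r = -0.89 (n = 8, exact permutation p = 0.00102, adjusted p = 0.0458 over 45 pairs) and Spearman's rho = -0.90 (exact permutation p = 0.00456, adjusted p = 0.205). It was -0.85 without the 2 libraries farthest from the median of Twist1 and -0.86 without Male replicate 2. The sign held when each library was left out in turn, with r from -0.93 to -0.86, but the adjusted p then missed 0.05 each time, and over all alternatives it ran from 0.0391 to 0.804. Without Male replicate 2 it was 0.5. The highest value came from the replicate block, whose permutation test has too few orders to reach 0.05. The library order, high Twist1 and low Twist2 in Female replicate 4 and Male replicate 3 and the reverse in Female replicate 1 and Male replicate 2, included both sexes.

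Snai1 varied with Twist1, at r = 0.88 (n = 8, exact permutation p = 0.00372, adjusted p = 0.0837) and rho = 0.79 (exact permutation p = 0.0279, adjusted p = 0.419), which did not pass. It was 0.64 without the 2 farthest libraries and 0.73 without Male replicate 2, and it passed without Male replicate 4 (r = 0.94, adjusted p = 0.0446, exact permutation). Zeb2 and Msx2 had the most negative value, r = -0.93 (n = 8, exact permutation p = 0.0112, adjusted p = 0.12) with rho = -0.55 (exact permutation p = 0.171, adjusted p = 0.521). This one rests on single libraries, since r was -0.23 without the 2 libraries farthest from the median of Zeb2 and -0.59 without Male replicate 2. Of the other paralogs, Prrx1 and Prrx2 had r = 0.68 and rho = 0.62 (exact permutation p = 0.068 and 0.115, adjusted p = 0.297 and 0.517), with 0.71 without the 2 farthest libraries. Msx1 and Msx2 had r = -0.67 and rho = -0.29 (exact permutation p = 0.0846 and 0.501, adjusted p = 0.297 and 0.609), and r was 0.04 without the 2 farthest libraries and 0.14 without Male replicate 2. Snai1 and Snai2 (r = -0.44, rho = -0.29) and Zeb1 and Zeb2 (r = -0.32, rho = -0.29) did not pass either (exact permutation p = 0.274 and 0.425, adjusted p = 0.44 and 0.517; for rho 0.501 each, adjusted p = 0.609 each).

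**Figure D3:**
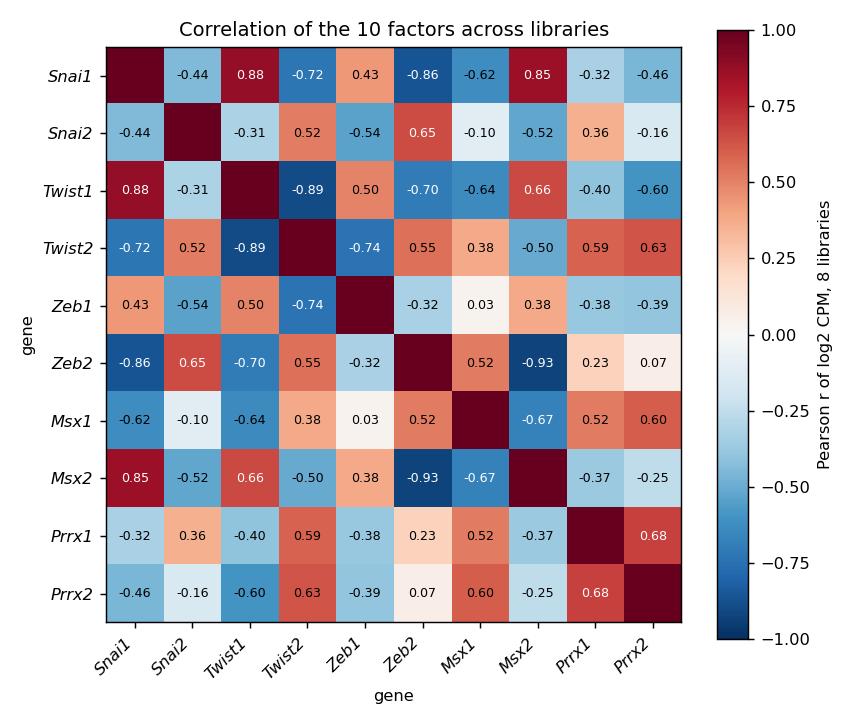
Pearson's r of log2 CPM over 8 libraries for every pair of the 10 factors, on a colour scale from -1 to 1. Snai1 and Twist1 have the same sign as each other with all the other factors. Zeb1 and Msx2 are positive with both, and Snai2, Twist2, Zeb2, Msx1, Prrx1 and Prrx2 are negative with both. Only the value of Twist1 and Twist2 (-0.89) passed after adjustment.

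Many genes followed the mitochondrial share of counts over these libraries, with an absolute r above 0.9 for 18.0% of all genes tested (8.47% above 0.9 and 9.56% below -0.9). Twist1, Snai1 and Twist2 were among them, 3 of the 10 factors, which is not read as particular to the factors. Their values are given because they bear on the correlation of Twist1 and Twist2. Against the mitochondrial share of counts, r was 0.96 for Twist1 (n = 8, exact permutation p = 0.000546, adjusted p = 0.00843) and rho was 0.90 (exact permutation p = 0.00456, adjusted p = 0.0456). For Snai1 r was 0.90 (exact permutation p = 0.00191, adjusted p = 0.0127) and rho 0.93 (exact permutation p = 0.00223, adjusted p = 0.0446), and for Twist2 r was -0.91 (exact permutation p = 0.000843, adjusted p = 0.00843) and rho -0.88 (exact permutation p = 0.00724, adjusted p = 0.0483). P-values were adjusted over 20 relations, of each factor with the mitochondrial share and with the total count, chosen after seeing the data. Without the 2 libraries farthest from the median share r was 0.89, 0.74 and -0.92 in the same order, and without Male replicate 2 it was 0.92, 0.81 and -0.88, with adjusted p = 0.0813, 0.2 and 0.0813 (exact permutation). Twist2 missed the threshold with library size as the sole scaling (r = -0.82, adjusted p = 0.0587, exact permutation), and Snai1 missed it also without Female replicate 4 (adjusted p = 0.0661) or Male replicate 3 (0.0609, exact permutation). No factor passed against the total count. The part of the mitochondrial share in the correlation of Twist1 and Twist2 was not tested.

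**Figure D4:**
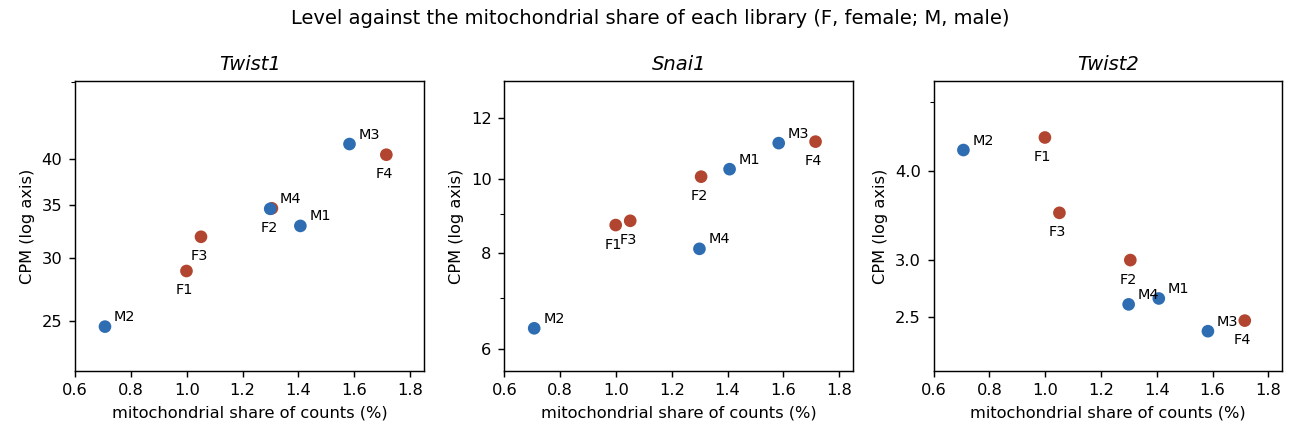
CPM of Twist1, Snai1 and Twist2 (log axes) against the mitochondrial share of counts of each library (percent, linear axis); red points are female and blue points male libraries, labelled by replicate. Twist1 and Snai1 are lowest and Twist2 is high at 0.707% in Male replicate 2, and the order is the reverse at 1.58% and 1.72% in Male replicate 3 and Female replicate 4.

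Other cell types that can carry these factors were compared through the means of 8 marker lists. Of 80 relations between a factor and a list, 0 passed after adjustment and 19 had an unadjusted p below 0.05 by the exact permutation test. Over all tested genes, 14.6% of the relations with the same lists had an unadjusted p below 0.05 (exact permutation), leaving out the genes of each list. The relations of a factor share the same 8 libraries, and the factors' count was not tested against that share. Prrx1 was closest to the neural crest list (7 of 12 markers used, Sox10 and Foxd3 among those under 1 CPM), with r = 0.91 (n = 8, exact permutation p = 0.00318, adjusted p = 0.0847) and rho = 0.83 (exact permutation p = 0.0154, adjusted p = 0.294), 0.78 without the 2 farthest libraries and 0.89 without Male replicate 2. The summed neural crest markers were 135 to 156 CPM in females and 116 to 181 CPM in males. Twist2 was closest to the foregut list, with r = 0.91 (exact permutation p = 0.0028, adjusted p = 0.0847, n = 8) and rho = 0.76 (exact permutation p = 0.0368, adjusted p = 0.294), 0.71 without the 2 farthest libraries. Zeb1 ran against the list of pharyngeal and paraxial mesenchyme (6 of 14 used), with r = -0.90 (exact permutation p = 0.00109, adjusted p = 0.0847, n = 8) and rho = -0.95 (exact permutation p = 0.00114, adjusted p = 0.0913), -0.88 without the 2 farthest libraries and -0.90 without Male replicate 2. The summed level of that list was 57.2 to 80.1 CPM in females and 55.9 to 68.4 CPM in males.

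Of the genes on the lists of ligands, receptors, partners and targets of these factors, edgeR called 0 between the sexes. An unadjusted p below 0.05 (edgeR) was reached by 2 of the 19 transcription factors and signal transducers tested, and by 0 on the other lists. Over all genes tested 2.24% reached it, and the 2 are not read as particular to the lists. Of 16 genes tested on the list of cushion-inducing ligands, which also holds the hyaluronan synthase Has2, 0 were called. Higher values in males were found for 7 (median log2 fold change -0.01). The most abundant were Bmp7, a Bmp ligand of the myocardium, at 43.2 ± 2.78 CPM per kilobase (SD, n = 8), and Wnt2 at 38.5 ± 7.82. Of 15 receptors 0 were called (median 0.04), with the Tgf-beta co-receptor Eng at 49.3 ± 6.08 and the neuregulin co-receptor Erbb2 at 25.3 ± 2.21 CPM per kilobase. Of 19 transcription factors and signal transducers of the cushion 0 were called (median -0.04, 13 lower in males). Ctnnb1, which codes for beta-catenin, was at 110 CPM in Male replicate 2 and at 307 to 537 CPM in the other libraries, and Gata4 was at 168 CPM there and at 207 to 263 CPM elsewhere.

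Of 7 E-proteins and Id proteins, the partners and the inhibitors of Twist, 0 were called (median -0.11). Id2 stood at 184 ± 24.3 and Id1 at 91.5 ± 15.5 CPM per kilobase. Of 13 corepressors and regulators of Snail and Zeb proteins 0 were called (median -0.04). Ctbp1, a corepressor that Zeb proteins bind, stood at 67.0 ± 2.59 and the histone deacetylase Hdac1 at 46.7 ± 4.20 CPM per kilobase. Of 12 further members of the same or related families 6 were tested and 0 called. Hand2, a bHLH factor of the heart, stood at 88.8 ± 5.65 CPM per kilobase, above Twist1, and Hand1 at 39.2 ± 8.17. Hand1 was at 43.8 CPM in Male replicate 2 and at 71.0 to 94.4 CPM in the others.

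Downstream, of 20 genes of mesenchymal matrix and adhesion 0 were called and 13 had higher values in males (median 0.08). The intermediate filament Vim, a common marker of mesenchyme, had 1071 ± 64.8 CPM over the female and 1128 ± 67.1 CPM over the male libraries (mean ± SD, 4 libraries each). The matrix protein Sparc had 706 ± 78.4 and 835 ± 125 CPM. Of 20 epithelial genes that Snail and Zeb proteins are known to repress, or their epithelial counterparts, 18 were tested and 0 called, with 14 lower in males (median -0.18, against 0.01 over all genes tested). The keratins Krt8 and Krt18 were highest in Male replicate 2, at 311 and 196 CPM, against 142 to 251 and 77.0 to 150 CPM elsewhere. The foregut markers share Cdh1, Epcam and Cldn6 with the epithelial list. They had lower values in males for 10 of 10 (median -0.86, 0 called), and 1 had an unadjusted p below 0.05 (edgeR). Their sum was 85.9 CPM in Female replicate 1, against 24.3 to 38.5 CPM in the other females and 18.7 to 53.2 CPM in males. Cardiomyocyte markers had higher values in males for 11 of 12 (median 0.24, 0 called), and 3 had an unadjusted p below 0.05 (edgeR). Their sum was 64860 CPM in Male replicate 2, against 42090 to 51000 CPM in the other males and 38680 to 48090 CPM in females. The directions were not counted without Female replicate 1 or Male replicate 2. Over all genes tested, 47.1% had lower values in males and 2.24% had an unadjusted p below 0.05. The part of the foregut and cardiomyocyte markers in the epithelial and matrix lists was not tested.

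The genes whose pattern over the 8 libraries was most like each factor were taken by the highest Pearson's r of log2 CPM among all tested genes with established names, as a description. For Prrx1 they were Dlx1 (r = 0.97) and Dlx6 (r = 0.95), both at low levels of 0.569 and 1.03 CPM. For Snai1 they were Tmem106b and Zfp74 (both r = 0.99), for Twist1 Abat and Fam210a (both 0.99), and for Twist2 Lsr and Stmn1 (both 0.99). For Snai2 they were Apela (0.93) and Cd79a (0.92), for Zeb1 Slc25a23 (0.97) and Dgka (0.96), and for Zeb2 Zfp575 (1.00) and Cox8b (0.98). For Msx1 they were Nostrin (0.98) and Vps53 (0.97), for Msx2 Pex5 (0.99) and Pex10 (0.98), and for Prrx2 Nsmce2 (0.96) and Fam50a (0.95). No factor was among the closest genes of another. Each gene was picked as the highest of 16377 over 8 libraries, so the size of r carries no test.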

How the data were processed

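The 10 factors and the gene lists were chosen with earlier results of these data known. The deposited counts are whole reads per gene, made by the authors with Trimmomatic 0.36, STAR 2.5.2b and featureCounts (Subread 1.5.2) on GRCm38/mm10, per the submitters' processing notes. The annotation release, strand setting and treatment of reads over several genes were not given in the sources used here. A normalized signal table of 16460 genes, also deposited by the authors, holds the counts times 1 factor per library and served only as an alternative.

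Of the 49315 genes, 16377 passed edgeR's filter (minimum count 10). Sexes were compared with edgeR 4.0.16 (R 4.3.3, TMM, robust quasi-likelihood test, Benjamini-Hochberg over all genes tested, threshold 0.05). DESeq2 1.42.0 and limma-voom (limma 3.58.1) were alternatives, with other scalings, filters, leaving out each library and a replicate block. Log2 CPM used a prior count of 0.5. Paralog ratios used counts per kilobase with 0.5 added to each count, tested over all 70 divisions of the libraries. Correlations over 8 libraries were tested over all 40320 orders and adjusted within each family of relations. Total counts were 20105913 to 51134291 per library, and counts per factor limit the precision of Snai2 and Twist2 most. Named genes were the 10 factors, the 2 members of each list with the highest CPM per kilobase, any called list members, and the 2 genes with the highest r to each factor, leaving out predicted names. Marker genes under 1 CPM on average were left out of list means. The statistics were tested on simulated data.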

Additional observations from a re-analysis of the deposited data

Results flagged for a closer look

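In 2 of 30 groups of 4 libraries examined, 1 library lay far from the others of its sex; chance flags about 1 group in 20. Twist2 stood at 4.28 CPM in Male replicate 2, while the other male libraries lay between 2.39 and 2.65 CPM. Prrx1 stood at 13.05 CPM in Male replicate 2, while the other male libraries lay between 8.37 and 9.15 CPM. Both are the same library, which also had the lowest mitochondrial share of counts (0.707%) and the highest cardiomyocyte and neural crest marker means. The part of these in the 2 values was not tested.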

How the results depend on the processing

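In each alternative run, 0 of the 10 factors were called between the sexes, while 5 to 9 genes were called in all (6 in the reported test, 9 with DESeq2, 7 with limma-voom, 5 with the replicate block). The number of factor pairs whose correlation passed, 1 as reported (Twist1 and Twist2), was 0 with library size alone, linear CPM or deviations from the mean of each sex. It was 0 to 1 when a library was left out (1 without Male replicate 4, Snai1 and Twist1). With the replicate block it was 0, the sole outcome that test allows. Library size alone turned r of Snai1 and Snai2 to 0.11 and let 2 relations with marker lists pass, Snai1 and Twist1 with endocardium; leaving out a library gave 0 to 1 (without Female replicate 2, Zeb1 with pharyngeal mesenchyme). The cause was not tested. Leaving out a library moved the log2 fold change (male minus female) over -0.24 to 0.013 for Snai1, -0.092 to 0.057 for Snai2, -0.15 to 0.095 for Twist1, -0.39 to 0.019 for Twist2, -0.0075 to 0.12 for Zeb1, -0.056 to 0.17 for Msx1 and -0.42 to -0.06 for Msx2. The log2 ratio difference ran over -0.28 to 0.10 for Snai1 to Snai2, -0.082 to 0.47 for Twist1 to Twist2 and -0.19 to 0.030 for Zeb1 to Zeb2. It ran over 0.016 to 0.53 for Msx1 to Msx2 and -0.29 to -0.12 for Prrx1 to Prrx2. The r of Msx1 and Msx2 ran over -0.75 to 0.14. In TPM the levels were 13.9 for Snai1, 4.09 for Snai2, 50.1 for Twist1, 2.29 for Twist2, 8.59 for Zeb1, 2.71 for Zeb2, 24.6 for Msx1, 19.5 for Msx2, 2.28 for Prrx1 and 134 for Prrx2. With the longest coding transcript as the length (chosen after seeing the data), CPM per kilobase was 6.33 for Zeb1, 2.55 for Zeb2, 17.0 for Msx1, 10.8 for Msx2, 1.67 for Prrx1 and 78.2 for Prrx2. Replicate numbers are shared between the sexes, and the labels do not say if libraries of the same number belong together. The deviations of same-numbered libraries correlated at -0.404, -0.0826, -0.306 and -0.0272. With 52.4% of the variance on the first principal component, these values cannot show whether such libraries shared a litter or a run. With the replicate block, r of Twist1 and Twist2 was -0.85 (exact permutation, adjusted p = 0.804). Orders were exchanged there only within a replicate number, which holds 1 female and 1 male library. So few orders cannot give a p below 0.05 for any pair, and the block does not decide whether the correlation holds. No female library correlated best with the male library of its number. Counts of 54 to 202 limit Snai2 and Twist2.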
